A study of Mus musculus with 18 samples.

Results

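Ovaries of 40-week-old mice were compared with ovaries of 8-week-old mice by 3' RNA sequencing, 6 mice per age, at 16 hours after an ovulatory hormone dose. The 12 libraries were chosen by their labels, as all control mice of the series, out of 18 libraries in all. The other 6 came from 40-week-old mice given the herbal decoction Samul-tang at 2.5 g/kg and served only to estimate the spread in the same fit. All mice were wild-type Balb/c females. The young controls (8 weeks) and the aged controls (40 weeks) both received distilled water by mouth 5 times a week for 4 weeks. Follicle growth was then driven with pregnant mare serum gonadotropin (5 IU), and ovulation was triggered after 48 hours with human chorionic gonadotropin (hCG, 5 IU). The sources used here do not state whether the ages are those at the start of dosing or at collection. Per the labels' protocols, aged controls shared cages with treated aged mice so that their cycles ran together, total RNA was extracted from each ovary, and 1 library was made per mouse. Each group is thus 1 strain at 1 hormone-driven time point, and no untreated cycle stage and no other age was sampled.

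The mammalian ovary holds a store of oocytes that is laid down early in life and is not renewed. Each oocyte sits in a follicle of granulosa cells, which make estrogen and the signals of follicle growth, and an outer theca layer, which makes androgens and is steered by hedgehog signals from the granulosa cells. After ovulation the remaining follicle cells become a corpus luteum, which turns cholesterol into progesterone. Follicles and corpora lutea lie in a stroma of fibroblasts, smooth muscle, vessels and immune cells, and with reproductive ageing the number of follicles falls while immune cells, among them lipid-laden multinucleated macrophages, accumulate in this stroma.

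Depth did not separate the ages. Libraries held 9.05 to 14.1 (young) and 11.6 to 13.4 (aged) expected counts in multiples of 1000000 (exact permutation p = 0.965). The shares of the most abundant gene, of mitochondrial genome genes and of ribosomal protein genes gave exact permutation p-values from 0.353 to 0.805. Fewer genes had at least 1 count in aged ovaries (22853 ± 232 against 23679 ± 297, SD, n = 6; exact permutation p = 0.00216, the smallest that the regroupings of 6 against 6 allow; adjusted p = 0.0152 over 7 library measures). In a principal component analysis of 2000 genes the first component (28.7% of the variance) separated all young from all aged libraries. Young control 3 stood apart on the second component (12.4%), at 38.7 against -15.6 to 14.5 for the other 11 libraries. Its summed level lay outside the range of the other 5 young libraries for 42 of the 54 gene lists described here, so some results are given with and without it. Values given once may also depend on it, and the genes of the text for which it stood far apart are listed near the end.

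The tissue matched its label, with the granulosa gene Foxl2 at 197 to 268 CPM (median 222) in young ovaries. Of 14 oviduct and ciliated epithelium genes 6 could be tested, and none was called by edgeR, DESeq2 or limma voom or had an unadjusted p under 0.05. Their summed level was 10.4 to 16.0 CPM (counts per 1000000, scaled between libraries) in young and 8.52 to 14 CPM in aged libraries, and Pax8 had no count in the 12 libraries. Of 12 skeletal muscle genes 2 could be tested, with sums of 3.09 to 4.89 and 4.03 to 5.08 CPM, none was called by these tools or at an unadjusted p under 0.05, and Mb had no count. The adipocyte list was higher in aged ovaries, at 392 to 423 against 227 to 343 CPM, but its defining markers were near 0, with Adipoq at a mean of 0.0708 CPM in young and 0.0722 CPM in aged ovaries and Lep with no count. Of its 8 tested genes 2 were called higher. Fabp4, a fatty acid binding protein gene that capillaries and macrophages also express, ran from 3.73 to 8.49 CPM (median 6.06) in young and, without overlap, from 29.3 to 63.5 CPM (median 32.9) in aged ovaries. Car3 changed by 1.11 ± 0.31 (log2 fold change) and was past the threshold in 14 of 25 alternatives. Its call was lost without aged control 2, 5 or 6 or young control 2, 3 or 4.

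Of 16959 genes tested, 1912 (11.3%) were called between the ages at an adjusted p under 0.05 (edgeR quasi-likelihood test), 890 (5.25%) higher and 1022 (6.03%) lower in aged ovaries. The median log2 fold change over all genes was 0.01, and for 13673 genes (80.6%) the 95% interval lay wholly within a fold of 2. Among the called genes, falls were larger than rises. The median log2 fold change of the genes called lower was -0.72 and of those called higher 0.42; in all 480 genes changed at least 2-fold (2.83%). Of these 362 fell (2.13%) and 118 rose (0.696%), and 60 against 19 passed a fold of 4. With library totals in place of scaling factors the median of all genes moved by -0.06 and the called genes divided into 501 higher and 1431 lower; on the authors' TPM values plus 1 the split was 559 against 1105.

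The direction of the calls went with the level of the gene. Among genes with a mean over 100 CPM, 12.8% were called higher and 5.55% lower; among those of 1 to 5 CPM, 2.41% were called higher and 6.36% lower. In the second class 202 of 275 falls and 51 of 104 rises were at least 2-fold, against 2 of 83 and 2 of 191 in the first. The median SE was 0.28 in the second class and 0.07 in the first. A low gene thus passes the threshold only with a large change, so the size of called changes by level partly reflects the threshold. Summed over the called genes, the rises added 22608 CPM and the falls summed to -13569 CPM. All 6 aged libraries lay above or below all 6 young libraries for 1252 genes (7.38%), 545 upward (3.21%) and 707 downward (4.17%).

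**Figure D1:**
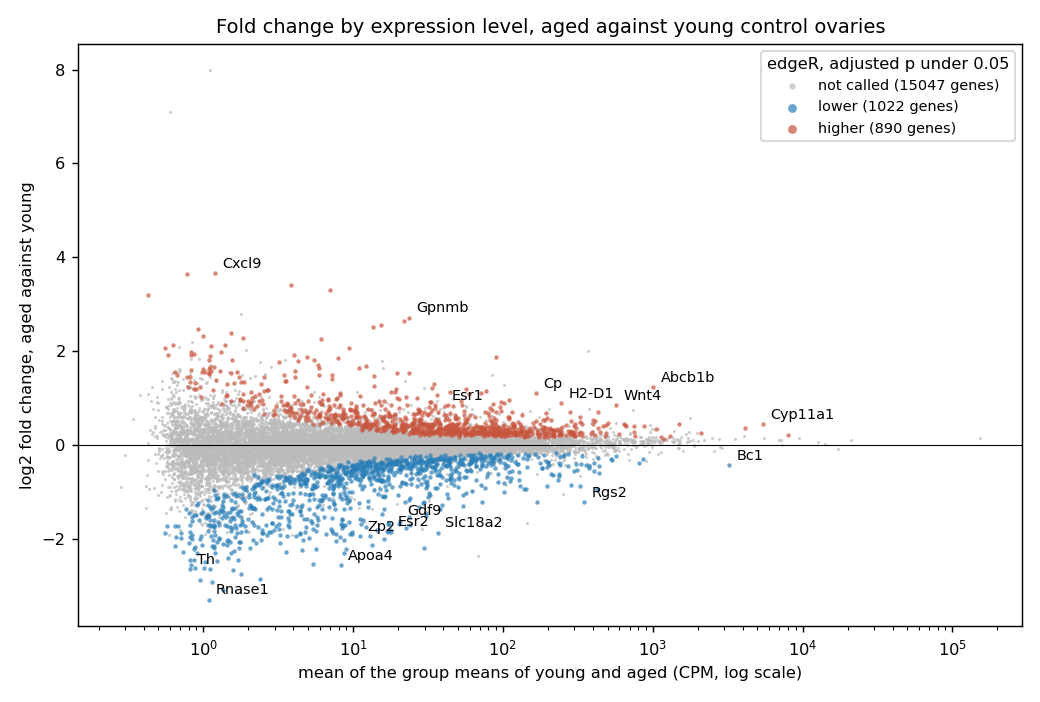
Log2 fold change of each tested gene (aged against young, y axis) against its mean level (CPM, log scale, x axis). Each point is 1 gene, coloured where the edgeR adjusted p was under 0.05: 890 genes higher and 1022 lower. The large falls lie at low levels and the calls at high levels are mostly small rises.

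The gene with the smallest p was Rgs2, which encodes a regulator that shuts off G protein signals. It ran from 449 to 547 CPM (median 479) in young and, without overlap, from 192 to 234 CPM (median 207) in aged ovaries, so that no aged ovary reached a young one (log2 fold change -1.22 ± 0.08 SE, adjusted p = 4.13e-10). Genes of smallest p were named only where the ages did not overlap, so the lack of overlap was a condition and not a result. Among them were the transcription factor genes Bcl11a and Foxp2. Bcl11a ran from 31.2 to 46.2 CPM (median 40.5) in young and, without overlap, from 13.7 to 18.3 CPM (median 15.3) in aged ovaries (log2 fold change -1.31 ± 0.12 SE). Foxp2 ran from 33.4 to 51.7 CPM (median 41.1) in young and, without overlap, from 14.8 to 20.4 CPM (median 18.5) in aged ovaries (log2 fold change -1.20 ± 0.12 SE). Tcl1, an oocyte and embryo gene that enhances AKT kinase, ran from 10.3 to 16.2 CPM (median 15) in young and, without overlap, from 2.31 to 4.70 CPM (median 3.59) in aged ovaries (log2 fold change -2.02 ± 0.18 SE). No aged value of Tcl1 came near the young values. Col11a1, a fibrillar collagen chain, ran from 19.8 to 26.4 CPM (median 23.4) in young and, without overlap, from 7.06 to 10 CPM (median 9.61) in aged ovaries (log2 fold change -1.35 ± 0.13 SE), and the actin-binding protein gene Synpo and Ivns1abp changed by -0.85 ± 0.08 and -0.88 ± 0.08. The neighbouring genes Arxes2 and Arxes1 changed by -1.12 ± 0.11 and -1.11 ± 0.29; they are near copies of each other and may share reads.

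Among the rises with the smallest p, Lix1 ran from 3.86 to 7.10 CPM (median 5.24) in young and, without overlap, from 13.2 to 20.1 CPM (median 16.2) in aged ovaries (log2 fold change 1.65 ± 0.17 SE, adjusted p = 5.88e-07). Mgst2, a membrane-bound glutathione transferase, ran from 32.7 to 42.0 CPM (median 37.7) in young and, without overlap, from 68.9 to 98.6 CPM (median 79.5) in aged ovaries (log2 fold change 1.09 ± 0.11 SE). Snx10, which sorts endosomal membranes, ran from 14 to 17.9 CPM (median 16.2) in young and, without overlap, from 27.0 to 33.1 CPM (median 29.0) in aged ovaries (log2 fold change 0.86 ± 0.08 SE). The homeobox gene Meis2 ran from 22.2 to 25.9 CPM (median 24.6) in young and, without overlap, from 34.8 to 42.4 CPM (median 38.7) in aged ovaries (log2 fold change 0.64 ± 0.07 SE). These 4 genes, too, were picked among called genes whose groups did not overlap. Receptor chains for cytokines were among the same 12 rises. Il4ra, which binds interleukins 4 and 13, ran from 36.1 to 47.0 CPM (median 43.7) in young and, without overlap, from 60.7 to 72.9 CPM (median 66.1) in aged ovaries (log2 fold change 0.65 ± 0.08 SE) and Il10rb, shared by interleukin 10 and the lambda interferons, changed by 0.68 ± 0.08. Pde1a, a phosphodiesterase that breaks down cyclic nucleotides, changed by 0.79 ± 0.09.

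**Figure D2:**
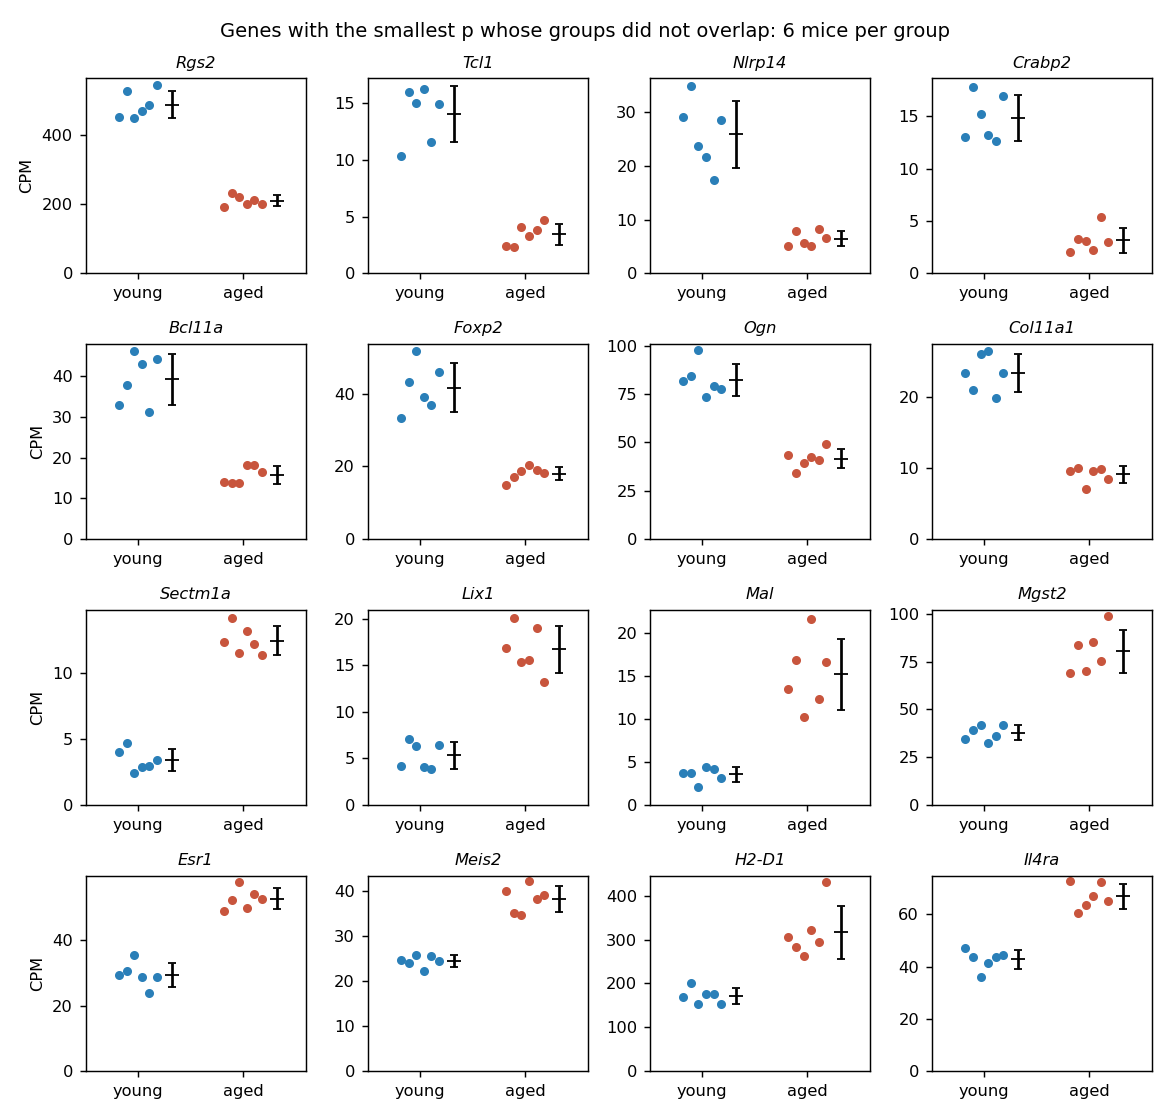
CPM (y axis, from 0) of 16 of the genes with the smallest p whose libraries do not overlap between the ages, 1 point per mouse, 6 young (left) and 6 aged (right), with the group mean and SD beside the points. In every panel all aged points lie below (upper 8 panels) or above (lower 8 panels) all young points.

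Ranked by the difference in mean CPM, the called rises were led by Cyp11a1, mt-Cytb and Hsd3b1, and Abcb1b, Idh1, Ftl1, Wnt4 and Fth1 were also among the first 8. Cyp11a1, which opens steroid synthesis by cutting the cholesterol side chain, ran from 3560.0 to 5230.4 CPM (median 4661) in young and, without overlap, from 5884 to 6659 CPM (median 6228) in aged ovaries (log2 fold change 0.45 ± 0.08 SE). Idh1, a cytosolic source of NADPH, ran from 1134 to 1405 CPM (median 1266) in young and, without overlap, from 1502 to 1895 CPM (median 1776) in aged ovaries (log2 fold change 0.46 ± 0.10 SE). The ferritin heavy chain gene Fth1 ran from 838 to 1008 CPM (median 926) in young and, without overlap, from 1014 to 1288 CPM (median 1187) in aged ovaries (log2 fold change 0.35 ± 0.06 SE). The ferritin light chain gene Ftl1 changed by 0.26 ± 0.07 (adjusted p = 0.0197) and was past the threshold in 18 of 25 alternatives; its call was lost without aged control 1, 2 or 3 or young control 2. Abcb1b, a membrane pump for drugs and steroids, ran from 204 to 741 CPM (median 672) in young and, without overlap, from 1277 to 1703 CPM (median 1396) in aged ovaries. Young control 3 held the 204 CPM, and without it the log2 fold change of Abcb1b was 1.06 (adjusted p = 0.00113) against 1.24 ± 0.26 with it.

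The largest falls in CPM included the small neuronal RNA gene Bc1 (-0.43 ± 0.12), which was past the threshold in 15 of 25 alternatives, with the call lost without aged control 1, 3, 4 or 5 or young control 1, 2, 4 or 6. Prkar2b, a regulatory subunit of the cyclic AMP-dependent kinase, ran from 382 to 655 CPM (median 572) in young and, without overlap, from 271 to 342 CPM (median 284) in aged ovaries (log2 fold change -0.93 ± 0.18 SE). Tenm4, a large transmembrane adhesion protein gene, ran from 284 to 442 CPM (median 362) in young and, without overlap, from 179.6 to 243 CPM (median 199) in aged ovaries (log2 fold change -0.84 ± 0.13 SE), and Tsc22d1 changed by -0.30 ± 0.08. In these last 3 genes no aged value reached a young one.

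Gene lists were described by their counts of called members and their median log2 fold change, beside 5.25% higher, 6.03% lower and a median of 0.01 over all genes tested; no test was made of a list as such. Counts of 1 or 2 called members moved by over 1.5 times in 21 of 32 cases when single libraries were left out. Of 31 cases with no edgeR call of a list in a direction, DESeq2 called a member in 4 and limma voom in 7, at most 2 members each, and at most 4 members had an unadjusted p under 0.05. Of each list, the called members with the smallest p are named by rule; other members are shown to cover the rest of a list and were chosen after their values were seen. The lowest medians belonged to the oocyte lists of zona, early transcription factor, maternal effect and meiosis genes, followed by the lymphatic endothelium list (-0.73). The granulosa (-0.58) and nerve and glia (-0.57) medians lay below those of oocyte mRNA storage (-0.55) and transposon control (-0.41). The highest belonged to MHC class II presentation (0.85), interferon-stimulated genes (0.48) and the adipocyte list (0.48).

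**Figure D3:**
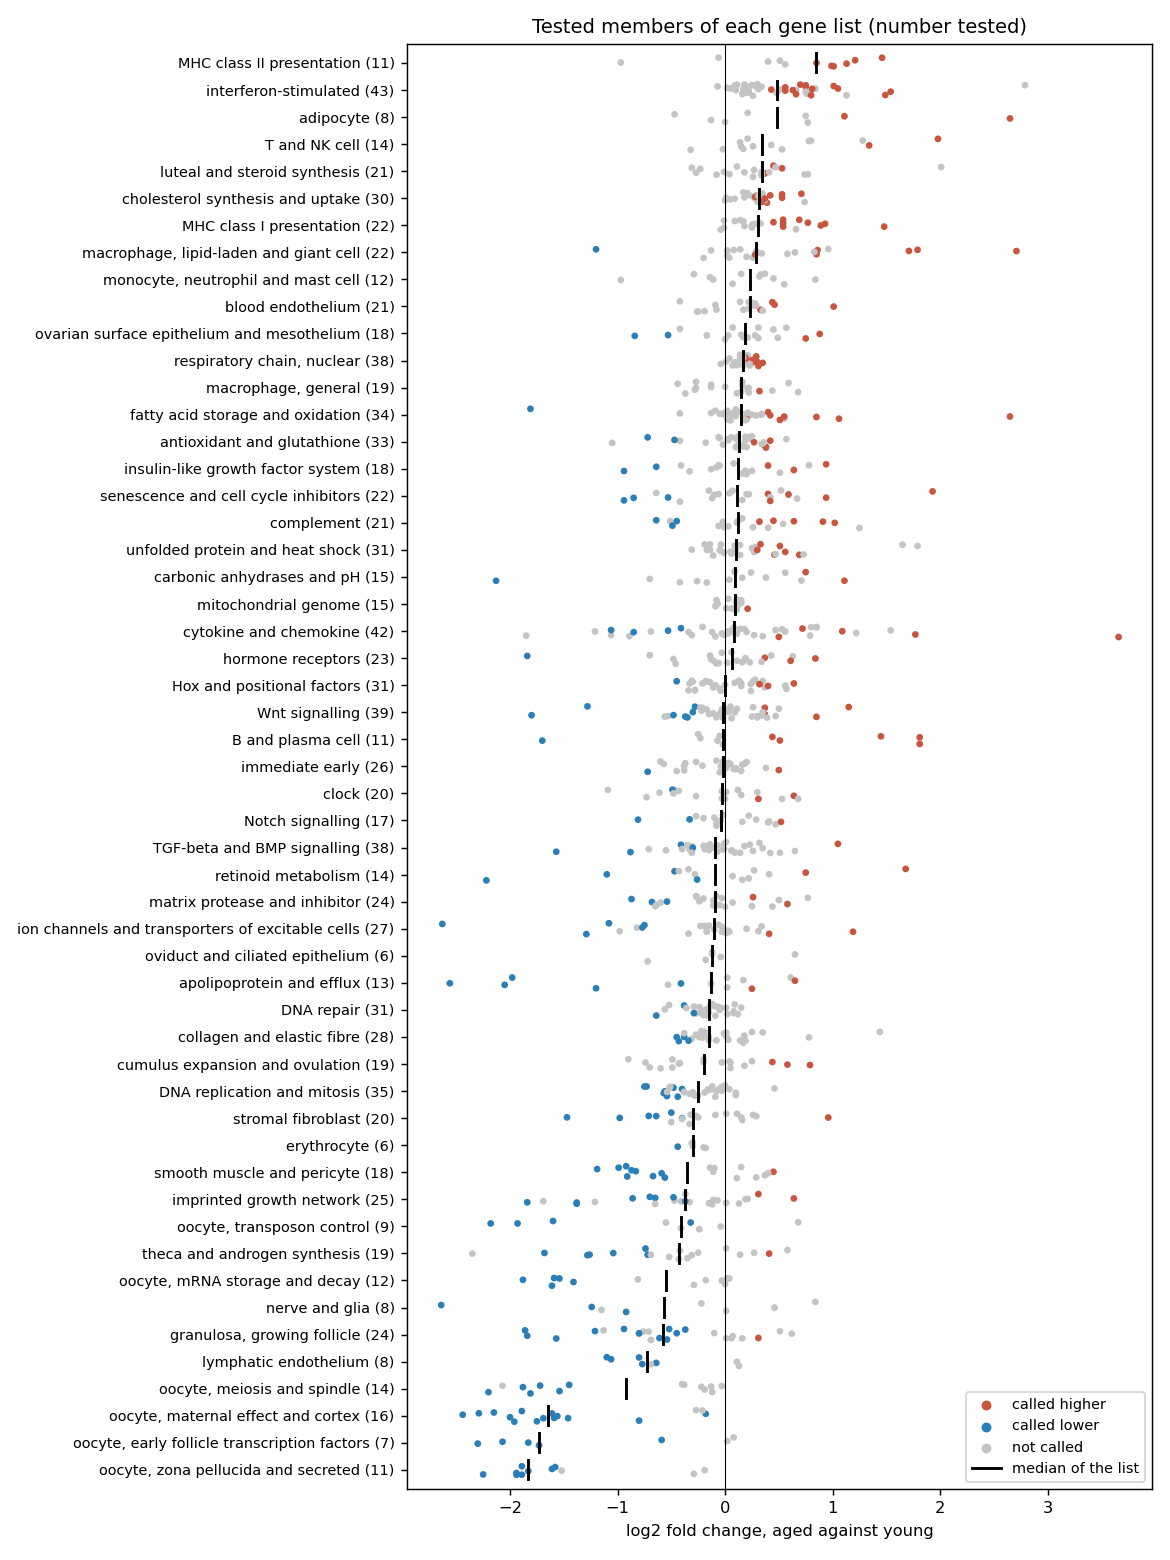
Log2 fold change (x axis) of the tested members of 53 of the 54 gene lists (rows, number tested in brackets), 1 point per gene, coloured by call, with the median of each list as a black bar. Oocyte lists lie to the left of 0 and antigen presentation and interferon lists to the right, and many lists hold members called in both directions.

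Oocyte genes fell together. Of 69 oocyte genes tested over 6 lists, 42 were called lower and none higher by edgeR (none by DESeq2 or limma voom, and 1 at an unadjusted p under 0.05). Of the 42, 38 fell by at least 2-fold, and the median over the 69 was -1.54. In 35 of the 42 the ages did not overlap, against 1083 of all 1912 called genes. Absence of overlap often comes with a call and is not separate evidence. Among the zona pellucida and secreted factor genes 8 of 11 fell (median -1.83), and their summed level went from 78.8 to 126 CPM (median 112) in young to 32.4 to 45.9 CPM (median 38.9) in aged ovaries. Astl encodes ovastacin, the protease that hardens the zona after fertilisation. It changed by -1.83 ± 0.30, and Oosp1, an oocyte-secreted protein gene, ran from 4.14 to 8.80 CPM (median 7.09) in young and, without overlap, from 1.14 to 3.34 CPM (median 2.40) in aged ovaries (log2 fold change -1.58 ± 0.24 SE). In a whole ovary, fewer oocytes and less RNA per oocyte cannot be told apart, and this holds for every cell type below.

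Maternal effect genes, whose products the early embryo uses, fell in 14 of 16 cases (median -1.65). Ooep, part of the subcortical complex of the egg, ran from 24.6 to 44.3 CPM (median 37.4) in young and, without overlap, from 8 to 16.3 CPM (median 10.8) in aged ovaries (log2 fold change -1.69 ± 0.21 SE, adjusted p = 3.45e-05). Nlrp14, another egg protein gene of the NLRP family, ran from 17.3 to 34.8 CPM (median 26.1) in young and, without overlap, from 5.13 to 8.21 CPM (median 6.10) in aged ovaries (log2 fold change -2 ± 0.18 SE). The zygote arrest gene Zar1 ran from 10.2 to 13.6 CPM (median 12.2) in young and, without overlap, from 1.58 to 4.71 CPM (median 3.16) in aged ovaries (log2 fold change -1.89 ± 0.25 SE). Zbed3, of the same complex, changed by -0.80 ± 0.10.

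Early follicle transcription factors fell in 5 of 7 cases, and so did 5 of 12 genes for messenger RNA storage and decay. Nobox, which drives oocyte genes in primordial follicles, ran from 2.34 to 3.73 CPM (median 2.77) in young and, without overlap, from 0.239 to 1.29 CPM (median 0.608) in aged ovaries (log2 fold change -2.07 ± 0.36 SE). Lhx8 changed by -2.30 ± 0.56 and Taf4b by -0.59 ± 0.12. Eif4e1b, an oocyte form of the cap-binding factor, changed by -1.88 ± 0.23 and Btg4, which triggers the clearing of maternal messages, by -1.54 ± 0.24. The general transcription factor gene Yy1 of the first list, which other cells also use, was not called (0.08 ± 0.06). Ddx4, the germ cell helicase, ran from 1.11 to 2.24 CPM (median 1.88) in young and, overlapping them, from 0.0790 to 1.29 CPM (median 0.600) in aged ovaries (log2 fold change -1.59 ± 0.42 SE).

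Of the meiosis and spindle genes 6 of 14 fell (median -0.92). Mos, the kinase that holds the egg in metaphase, ran from 1.82 to 4.34 CPM (median 3.62) in young and, without overlap, from 0.176 to 1.29 CPM (median 0.784) in aged ovaries (log2 fold change -2.20 ± 0.38 SE). The meiotic cohesin gene Smc1b changed by -1.88 ± 0.29. H1foo, the oocyte linker histone gene, ran from 17.4 to 28.4 CPM (median 21.6) in young and, without overlap, from 3.51 to 9.09 CPM (median 6.35) in aged ovaries (log2 fold change -1.81 ± 0.22 SE). Spindle checkpoint and mitosis genes of the same list that dividing somatic cells also use, such as Bub1b (-0.12 ± 0.16) and Plk1 (-0.19 ± 0.19), were not called. In the transposon control list 4 of 9 fell, with Tdrd5 (-1.60 ± 0.15), Tdrd1 (-2.18 ± 0.41) and Gtsf1 (-1.93 ± 0.45) of the small RNA pathway and the maintenance methyltransferase gene Dnmt1 (-0.32 ± 0.07). The remaining 15 of the 84 oocyte genes listed were too low to test.

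Granulosa genes of growing follicles fell in 11 of 24 cases and rose in 1 (median -0.58); the count of falls was 7 without young control 6 and that of rises 0 without aged control 2 or young control 3 or 5. Esr2, which encodes the estrogen receptor of granulosa cells, ran from 19.4 to 38.9 CPM (median 25.3) in young and, without overlap, from 6.28 to 10.2 CPM (median 7.56) in aged ovaries (log2 fold change -1.84 ± 0.18 SE). Bmpr1b, a receptor for bone morphogenetic proteins and partner of oocyte-secreted factors, ran from 11.2 to 24 CPM (median 15.1) in young and, without overlap, from 3.70 to 9.49 CPM (median 4.93) in aged ovaries (log2 fold change -1.57 ± 0.28 SE). The monoamine transporter gene Slc18a2 changed by -1.86 ± 0.19. The activin chain gene Inhbb was not called (0.16 ± 0.39), nor was Kitl, the ligand that granulosa cells show to the oocyte (-0.10 ± 0.08, 95% interval -0.26 to 0.07). The fall was thus larger for the receptors Esr2 and Bmpr1b than for Foxl2 (-0.37 ± 0.10; the call was lost without aged control 2 or young control 3 or 6), which marks granulosa cells of all stages, although the difference between genes was not tested.

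In the theca and androgen list 6 of 19 genes fell and 1 rose. The 5 hedgehog pathway genes called in it all stood lower in aged ovaries. The ligand genes of granulosa cells fell: Ihh ran from 8.91 to 13.8 CPM (median 10.1) in young and, without overlap, from 2.40 to 5.89 CPM (median 4.40) in aged ovaries (log2 fold change -1.26 ± 0.29 SE) and Dhh changed by -1.28 ± 0.20. Ptch1, the receptor gene that hedgehog signals switch on in theca cells, ran from 46.3 to 63.4 CPM (median 55.2) in young and, without overlap, from 31.3 to 35.4 CPM (median 33.5) in aged ovaries (log2 fold change -0.72 ± 0.08 SE). Gli1 changed by -1.04 ± 0.21 and the pathway inhibitor gene Hhip by -0.74 ± 0.21 (the call was lost without aged control 2 or 3). Insl3, the theca peptide hormone gene, ran from 20.3 to 36.6 CPM (median 24.2) in young and, without overlap, from 6.37 to 11.3 CPM (median 7.33) in aged ovaries (log2 fold change -1.68 ± 0.17 SE). Mgarp, a mitochondrial protein gene of steroid-making cells, rose (0.41 ± 0.09).

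Genes of cumulus expansion and ovulation, which hCG induces within hours, mostly did not pass at this time point (3 of 19 higher, none lower, median -0.20). Cited4, a transcriptional cofactor, ran from 55.5 to 67.7 CPM (median 59.9) in young and, without overlap, from 95.5 to 117 CPM (median 102) in aged ovaries (log2 fold change 0.79 ± 0.09 SE, adjusted p = 1.44e-06). Runx2, a transcription factor gene of the ovulating follicle, changed by 0.44 ± 0.10, and the plasminogen activator gene Plau by 0.58 ± 0.16 (past the threshold in 21 of 25 alternatives; the call was lost without aged control 5 or young control 4). The progesterone receptor gene Pgr ran from 1.61 to 3.09 CPM (median 2.29) in young and, overlapping them, from 0.430 to 2.11 CPM (median 1.69) in aged ovaries and was not called (-0.70 ± 0.32, 95% interval -1.35 to -0.04).

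Of 21 luteal and steroid synthesis genes 3 rose and none fell, with a median of 0.34 and 16 positive values. The count was 5 without aged control 6 and 6 without young control 5. Their summed level ran from 15723 to 19559.7 CPM in young and from 21394 to 24342 CPM in aged ovaries, without overlap. Hsd3b1, which makes progesterone from pregnenolone, ran from 3207 to 3997 CPM (median 3627) in young and, without overlap, from 4244 to 5279.7 CPM (median 4585) in aged ovaries (log2 fold change 0.37 ± 0.07 SE). The luteinizing hormone receptor gene Lhcgr (0.27 ± 0.30, 95% interval -0.36 to 0.91) and Star, which carries cholesterol into mitochondria (0.18 ± 0.21, 95% interval -0.26 to 0.63), were not called. Young control 3 had 697 CPM of Star and the other young libraries up to 1799 CPM. Lhcgr passed in 1 of 25 alternatives, the fit without young control 3 and treated library 6.

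Hormone receptors moved one by one. Of 23 tested, 3 rose and 1 fell (5 rose without aged control 3). The estrogen receptors went in opposite directions. Esr1, the form of theca and stromal cells, ran from 23.8 to 35.3 CPM (median 28.9) in young and, without overlap, from 48.8 to 57.9 CPM (median 52.5) in aged ovaries (log2 fold change 0.84 ± 0.08 SE, adjusted p = 3.17e-07), and Esr2 fell as above. Nr1h3, the oxysterol receptor gene, ran from 5.65 to 10.3 CPM (median 8.50) in young and, without overlap, from 11.9 to 13.5 CPM (median 12.8) in aged ovaries (log2 fold change 0.61 ± 0.12 SE), and the thyroid hormone receptor gene Thrb changed by 0.37 ± 0.09 (call lost with limma on log2 TPM, adjusted p at most 0.381). The follicle-stimulating hormone receptor gene Fshr was low and not called (-0.80 ± 0.28; past the threshold in 5 of 25 alternatives, among them the fits without aged control 6 and without young control 1).

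Smooth muscle genes were listed with those of pericytes, and 9 of these 18 fell while 1 rose. Myocd, the cofactor that switches on the contractile programme, ran from 13.9 to 24.8 CPM (median 16.7) in young and, without overlap, from 4.83 to 9.81 CPM (median 7.60) in aged ovaries (log2 fold change -1.19 ± 0.17 SE). Myh11, its myosin, ran from 109 to 158 CPM (median 136) in young and, without overlap, from 57.4 to 78.2 CPM (median 67.8) in aged ovaries (log2 fold change -0.99 ± 0.10 SE) and Mylk, the myosin kinase gene, changed by -0.56 ± 0.10. Young control 3 was low for this list, with a sum of 1448 CPM against 1973 to 2302 CPM in the other young libraries and 1320.3 to 1425 CPM in aged ones. Without it 9 genes fell and 1 rose, as with it. The 1 rise was that of Pdgfrb, a growth factor receptor gene of pericytes and stroma, which ran from 21.5 to 30.1 CPM (median 27.3) in young and, overlapping them, from 28.4 to 43.6 CPM (median 37.7) in aged ovaries (log2 fold change 0.45 ± 0.11 SE). The pericyte genes Rgs5 (0.15 ± 0.21) and Cspg4 (0.11 ± 0.15) were not called.

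In the stromal fibroblast list 6 of 20 genes fell and 1 rose. Dpt, a matrix protein gene, ran from 5.12 to 13.4 CPM (median 7.30) in young and, without overlap, from 2.31 to 3.96 CPM (median 2.82) in aged ovaries (log2 fold change -1.47 ± 0.28 SE). Ogn, a small proteoglycan gene, ran from 73.5 to 97.6 CPM (median 80.5) in young and, without overlap, from 34.3 to 49.0 CPM (median 41.9) in aged ovaries (log2 fold change -0.98 ± 0.09 SE). The 1 rise was that of Smoc2, a calcium-binding matrix protein gene (0.96 ± 0.29, past the threshold in 12 of 25 alternatives); its call was lost without aged control 1, 2, 3, 4 or 5 or young control 1, 2, 4, 5 or 6. Collagen and elastic fibre genes fell in 4 of 28 cases and none rose (median -0.15). Without young control 3, 7 fell; its sum of 4401 CPM lay below the 5828 to 6556 CPM of the other young and the 5142 to 5893 CPM of the aged libraries. Fbn1, the main microfibril gene, ran from 46.3 to 53.9 CPM (median 51.2) in young and, without overlap, from 34.8 to 40.0 CPM (median 37.6) in aged ovaries (log2 fold change -0.45 ± 0.08 SE). Col1a1 stood at -0.27 ± 0.11 and was not called, but passed without aged control 1 and with limma voom. Among matrix proteases and inhibitors 2 of 24 rose and 3 fell. Serpine2, a protease inhibitor gene of granulosa cells, ran from 208 to 308 CPM (median 253) in young and, without overlap, from 119.7 to 158 CPM (median 138) in aged ovaries (log2 fold change -0.87 ± 0.11 SE). Adamts2, which trims procollagen, changed by -0.68 ± 0.08, and Timp3 by 0.26 ± 0.07 (call lost with library totals and with limma on log2 TPM).

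The calls among blood and lymphatic vessel genes went in opposite directions. Of 21 blood endothelial genes 4 rose (2 to 7 over the alternatives) and none fell (median 0.23), and of 8 lymphatic genes 5 fell and none rose (median -0.73). Plvap, a diaphragm protein gene of fenestrated capillaries, ran from 4.65 to 5.90 CPM (median 5.14) in young and, without overlap, from 7.80 to 14.7 CPM (median 10.3) in aged ovaries (log2 fold change 1.01 ± 0.21 SE). Emcn, a sialomucin gene of capillaries and veins, ran from 19.6 to 26.9 CPM (median 25.5) in young and, without overlap, from 30.7 to 36.9 CPM (median 33.7) in aged ovaries (log2 fold change 0.44 ± 0.09 SE). Ccl21a, the chemokine gene of lymphatic vessels, ran from 32.2 to 75.1 CPM (median 39.0) in young and, without overlap, from 13.8 to 28.3 CPM (median 20.7) in aged ovaries (log2 fold change -1.06 ± 0.20 SE). Prox1, the transcription factor gene that sets lymphatic identity, ran from 6.84 to 14 CPM (median 7.66) in young and, overlapping them, from 4.74 to 6.94 CPM (median 5.45) in aged ovaries (log2 fold change -0.64 ± 0.17 SE) and Mmrn1 changed by -0.77 ± 0.21. The lymphatic genes Pdpn (0.11 ± 0.10) and Flt4 (0.13 ± 0.15), which other ovarian cells also express, were not called. The summed lymphatic level ran from 124 to 169 CPM in young and from 97.9 to 111 CPM in aged ovaries. The summed blood endothelial level ran from 584 to 672 CPM in young and, overlapping them, from 666 to 755 CPM in aged ovaries. Of the 21 blood endothelial values 6 were negative.

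The surface epithelium and mesothelium list had 2 of 18 genes higher and 2 lower. Aldh1a2, which makes retinoic acid, ran from 37.7 to 81.3 CPM (median 67.7) in young and, without overlap, from 86.4 to 127 CPM (median 107) in aged ovaries (log2 fold change 0.75 ± 0.16 SE), and Lrrn4 changed by 0.88 ± 0.19. Msln (-0.84 ± 0.25) and Krt8 (-0.53 ± 0.17) fell. The call of Msln was lost without aged control 2, 3, 4, 5 or 6 or young control 1, 5 or 6. That of Krt8 was lost without aged control 1, 3, 4, 5 or 6 or young control 1, 2, 3, 5 or 6. In the nerve and glia list 3 of 8 genes fell. Uchl1, a deubiquitinase gene that oocytes share with neurons, ran from 35 to 46.2 CPM (median 42.2) in young and, without overlap, from 14.2 to 20.3 CPM (median 17.6) in aged ovaries (log2 fold change -1.24 ± 0.12 SE). Th, the first enzyme of catecholamine synthesis, changed by -2.64 ± 0.59. The glial identity gene Sox10 was near 0 in both groups. Of 6 erythrocyte genes 1 fell (Bpgm, -0.44 ± 0.10), and the haemoglobin genes were not called.

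**Figure D4:**
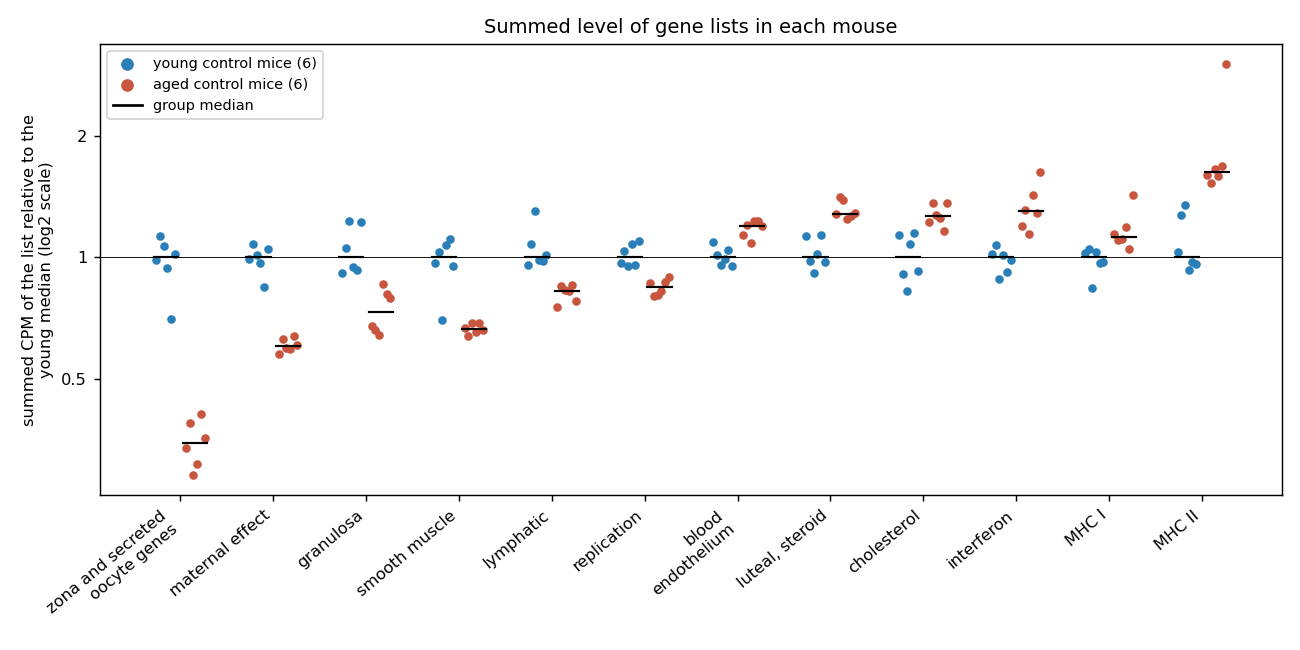
Summed CPM of 12 gene lists in each mouse, divided by the young median of the list (y axis, log2 scale), 6 young and 6 aged points per list with group medians as bars. The zona pellucida and secreted oocyte genes fall furthest, all aged points of MHC class II lie above the young ones, and aged control 6 stands highest for both MHC lists and for interferon genes.

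Antigen presentation genes rose in both classes. Class I molecules show peptides of the cell's own proteins, and class II molecules those that immune cells take up. Of 22 class I genes 9 rose and none fell (median 0.31). H2-D1, a class I heavy chain, ran from 153 to 200.4 CPM (median 172) in young and, without overlap, from 262 to 432 CPM (median 301) in aged ovaries (log2 fold change 0.89 ± 0.10 SE). H2-Q7, of the Q region, ran from 6.16 to 9.87 CPM (median 6.79) in young and, without overlap, from 14.8 to 29.8 CPM (median 19.7) in aged ovaries (log2 fold change 1.48 ± 0.22 SE). B2m, the light chain gene, ran from 292 to 359 CPM (median 325) in young and, overlapping them, from 344 to 705 CPM (median 448) in aged ovaries (log2 fold change 0.54 ± 0.14 SE). Heavy chain genes are close copies and may share reads. The immunoproteasome genes Psmb8, Psmb9 and Psmb10 changed by 0.54 ± 0.13, 0.77 ± 0.12 and 0.45 ± 0.08.

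Of 11 class II genes 6 rose and none fell (median 0.85). H2-Aa, an alpha chain, ran from 20.3 to 42.6 CPM (median 24.3) in young and, without overlap, from 43.1 to 112 CPM (median 52.6) in aged ovaries (log2 fold change 1.13 ± 0.23 SE). H2-Eb1, a beta chain, ran from 14.9 to 31.6 CPM (median 18.2) in young and, without overlap, from 35.7 to 87.6 CPM (median 39.3) in aged ovaries (log2 fold change 1.21 ± 0.22 SE). Aged control 6 held the highest sum of this list, 467 CPM against 237 to 262 CPM in the other aged libraries. H2-Aa was past the threshold in 25 of 25 alternatives, the one without aged control 6 among them, with log2 fold changes from 0.87 to 1.28. Cd74, the chain that guards the class II groove, changed by 0.99 ± 0.28 but lost its call without young control 1, 4, 5 or 6. The class II activator gene Ciita was low and not called (0.56 ± 0.29).

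Interferon-stimulated genes rose in 14 of 43 cases and fell in none, with 42 of 43 values positive (median 0.48); the summed level was 692 to 841 CPM in young and 891 to 1269 CPM in aged ovaries. Iigp1, an immunity-related GTPase gene, ran from 7.50 to 13.3 CPM (median 9.31) in young and, without overlap, from 17.6 to 61.4 CPM (median 24.8) in aged ovaries (log2 fold change 1.54 ± 0.33 SE). Its relatives Irgm2, Igtp and Ifi47 changed by 0.75 ± 0.14, 0.75 ± 0.20 and 0.80 ± 0.17. Rsad2, which encodes the antiviral enzyme viperin, ran from 2.38 to 5.99 CPM (median 3.78) in young and, without overlap, from 8.04 to 14.7 CPM (median 10.7) in aged ovaries (log2 fold change 1.49 ± 0.21 SE, adjusted p = 3.45e-05). Gbp7 and Gbp3, guanylate-binding protein genes, changed by 0.56 ± 0.11 and 0.70 ± 0.17. Among the signal genes upstream, Irf1 ran from 36.6 to 43.4 CPM (median 38.3) in young and, without overlap, from 44.5 to 64.5 CPM (median 51.0) in aged ovaries (log2 fold change 0.43 ± 0.08 SE). Irf9 (0.29 ± 0.10) was not called. The interferon gamma gene Ifng was at a mean of 0 CPM in young and 0.0268 CPM in aged ovaries and could not be tested.

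The interferon-stimulated response element, the site of interferon regulatory factor complexes, was searched as GAAA, any 2 bases and GAAA on both strands of RefSeq promoters (250 bases before to 50 after the start, GRCm38.p6). A gene counted as holding it where any of its promoters did (14480 promoters in all). It was present in 3.79% of 11336 tested genes with a promoter, in 7.36% of 666 genes called higher, in 4.59% of 740 called lower and in 16.7% of 78 called higher by at least 2-fold. Of the 13 genes called higher by at least 2-fold that held it, 2 were in the interferon list. Of 32 interferon list genes with a promoter 18 (56.2%) held it. Of these 18 genes 7 were called higher, and 4 of the 14 without it. Stretches of 80 bases around the element are shown for 4 genes called higher, to show the element in its context. Capitals mark the element only where a stretch centred on it ends before the start. In Gbp3 a second match overlaps the end of the marked one, lies nearer the start and is left in lower case beyond the overlap.
Rsad2 (chr12:26456528-26456607, minus strand): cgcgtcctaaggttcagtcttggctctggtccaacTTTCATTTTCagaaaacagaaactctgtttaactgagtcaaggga
Irgm2 (chr11:58214878-58214957, plus strand): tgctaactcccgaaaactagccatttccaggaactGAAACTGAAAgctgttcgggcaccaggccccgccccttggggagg
Gbp7 (chr3:142530248-142530327, plus strand): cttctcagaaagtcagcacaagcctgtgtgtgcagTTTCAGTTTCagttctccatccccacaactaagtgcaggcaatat
Gbp3 (chr3:142559964-142560043, plus strand): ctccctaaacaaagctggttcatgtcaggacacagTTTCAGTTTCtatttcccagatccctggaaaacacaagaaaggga
In Rsad2, Gbp7 and Gbp3 the marked element lies on the opposite strand to the gene and in Irgm2 on the same strand. The first base of the marked element lies 120, 53, 45 and 64 bases before the start in Rsad2, Gbp7, Gbp3 and Irgm2 (coded as -120, -53, -45 and -64). A match of letters is a description and does not show that the site is used. Shares of other motifs differed too, and not all motifs searched are given. The E-box CAGCTG was found in 18.3% of all these genes, 18% of genes called higher and 25% of genes called lower. Among genes changed at least 2-fold it was in 26.9% of those higher and 31.8% of those lower. The letters GGGGCGGGG were in 23.8% of all genes, and in 8.97% (higher) and 18.4% (lower) of those changed at least 2-fold. For TAATTG these shares were 6.02%, 8.97% and 11.4%.

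Immune cell genes were mostly low. In the list of lipid-laden and giant macrophages 6 of 22 genes rose and 1 fell; the count of rises was 2 without aged control 1 or young control 1 and 3 without aged control 2 or young control 2. Gpnmb, a lysosomal membrane protein gene of such cells, ran from 2.14 to 15.4 CPM (median 5.81) in young and, without overlap, from 17.4 to 60.4 CPM (median 38.0) in aged ovaries (log2 fold change 2.71 ± 0.56 SE). Atp6v0d2, a proton pump subunit gene of fused macrophages and osteoclasts, ran from 1.37 to 4.81 CPM (median 2.06) in young and, overlapping them, from 3.36 to 12.7 CPM (median 10.3) in aged ovaries (log2 fold change 1.71 ± 0.42 SE). The fusion genes Dcstamp and Ocstamp could not be tested, Dcstamp having no count in either group. Abca1, the cholesterol exporter gene, fell. Abca1 ran from 152 to 287 CPM (median 247) in young and, without overlap, from 80 to 117 CPM (median 107) in aged ovaries (log2 fold change -1.20 ± 0.29 SE). Of 19 general macrophage genes 1 rose, C1qa (0.32 ± 0.10), whose call was lost without aged control 1, 3, 4 or 6 or young control 1, 2, 4, 5 or 6. The list's median was 0.15, the median young sum was 383 CPM and the aged 478 CPM, and young control 3 had the highest sum of all 12 libraries, 612 CPM. Without young control 3, 4 of the 19 were called higher. No gene of the monocyte, neutrophil and mast cell list was called (0 of 12 with edgeR, 1 with DESeq2, 1 with limma voom and 1 at an unadjusted p under 0.05, median 0.23), and Plac8 (0.45 ± 0.15) passed without young control 3 and without young control 2.

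Of 11 tested B and plasma cell genes 5 rose and 1 fell; the count of rises was 3 without aged control 1 or 6 or young control 3 or 6. Igkc, the kappa light chain of antibodies, ran from 0.439 to 5.4 CPM (median 2.02) in young and, without overlap, from 5.82 to 12.1 CPM (median 8.86) in aged ovaries (log2 fold change 1.81 ± 0.47 SE). Jchain, which joins secreted antibodies, ran from 0.219 to 0.592 CPM (median 0.384) in young and, without overlap, from 0.948 to 1.32 CPM (median 1.12) in aged ovaries (log2 fold change 1.45 ± 0.39 SE). The B cell gene Cd79a was too low to test. Derl3, an endoplasmic reticulum gene that plasma cells share with other secreting cells, fell. Derl3 ran from 10.5 to 16.6 CPM (median 11.9) in young and, without overlap, from 3.01 to 5.71 CPM (median 3.81) in aged ovaries (log2 fold change -1.70 ± 0.19 SE). In the T and NK cell list 2 of 14 rose. Trbc2, a T cell receptor constant gene, ran from 0.684 to 1.78 CPM (median 0.851) in young and, without overlap, from 2.17 to 3.34 CPM (median 2.58) in aged ovaries (log2 fold change 1.34 ± 0.28 SE). Il7r, the interleukin 7 receptor gene, ran from 0.171 to 1.07 CPM (median 0.495) in young and, without overlap, from 1.23 to 3.32 CPM (median 1.66) in aged ovaries (log2 fold change 1.98 ± 0.47 SE). Cd3d, Cd3e and Cd3g were each under 1 CPM on average and could not be tested.

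Of 21 complement genes tested, 5 rose and 3 fell. C1s1, a protease of the first complex, ran from 26.1 to 36.1 CPM (median 31.8) in young and, without overlap, from 44.4 to 54.1 CPM (median 49.2) in aged ovaries (log2 fold change 0.64 ± 0.09 SE). C3, the central component, ran from 9.69 to 17.9 CPM (median 15.7) in young and, without overlap, from 19.4 to 38.9 CPM (median 32.1) in aged ovaries (log2 fold change 1.02 ± 0.24 SE). C2 changed by 0.91 ± 0.21. Cd55 and Clu, which restrain the cascade, fell (-0.64 ± 0.18 and -0.49 ± 0.10). The call of Cd55 was lost with the replicate block and with limma on log2 TPM. Not all inhibitors fell, as Serping1 (-0.06 ± 0.08) and Cd59a (0.26 ± 0.10) were not called.

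Among 42 cytokine and chemokine genes 5 rose and 4 fell. The counts were 9 higher without young control 3, and for the falls 2 without aged control 1 or 2 or young control 6. Cxcl9, an interferon-induced T cell attractant, ran from 0 to 0.746 CPM (median 0.111) in young and, overlapping them, from 0.599 to 5.33 CPM (median 1.63) in aged ovaries (log2 fold change 3.66 ± 0.96 SE, adjusted p = 0.00801). Young levels were near the limit of detection, and on the scale of log2 TPM plus 1 its call was lost (adjusted p = 0.125). Il33, an alarm cytokine of stromal and endothelial cells, ran from 0.959 to 2.22 CPM (median 1.28) in young and, without overlap, from 3.53 to 6.21 CPM (median 4.94) in aged ovaries (log2 fold change 1.77 ± 0.23 SE). Tnfsf13b, the survival factor BAFF of B cells, ran from 0.941 to 1.70 CPM (median 1.11) in young and, overlapping them, from 1.37 to 3.53 CPM (median 2.67) in aged ovaries (log2 fold change 1.09 ± 0.27 SE). Il18 changed by 0.50 ± 0.12. The chemokine gene Cxcl14 fell (-0.53 ± 0.09). Tnf and Il6 were too low to test, with means of 0.166 and 0.0984 CPM in aged ovaries.

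Of 22 senescence and cell cycle inhibitor genes 5 rose and 3 fell (median 0.12). Cdkn2a, which encodes p16 and the p53 activator p19, ran from 1.26 to 2.56 CPM (median 1.54) in young and, without overlap, from 3.70 to 9.55 CPM (median 6.86) in aged ovaries (log2 fold change 1.93 ± 0.26 SE, adjusted p = 1.79e-05). Cdkn1b, the inhibitor p27, ran from 242 to 311 CPM (median 254) in young and, without overlap, from 339 to 472 CPM (median 384) in aged ovaries (log2 fold change 0.59 ± 0.15 SE), while Cdkn1a, the p53 target p21, was not called (0.16 ± 0.20, 95% interval -0.26 to 0.58). Igfbp3 ran from 8.22 to 14.9 CPM (median 10) in young and, overlapping them, from 11.9 to 27.2 CPM (median 22.4) in aged ovaries (log2 fold change 0.94 ± 0.25 SE). The chromatin genes Ezh2 (-0.53 ± 0.07) and Hmga2 (-0.85 ± 0.20) fell, and Bmi1 rose (0.42 ± 0.10).

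DNA replication and mitosis genes fell in 8 of 35 cases and none rose (median -0.25). Ccne2, a cyclin of entry into replication, ran from 14.1 to 17.7 CPM (median 16.4) in young and, without overlap, from 7.50 to 12.1 CPM (median 10) in aged ovaries (log2 fold change -0.75 ± 0.12 SE). E2f1 changed by -0.73 ± 0.12, and the helicase subunits Mcm6 and Mcm5 by -0.56 ± 0.14 and -0.48 ± 0.11. Not called were Mki67 (-0.03 ± 0.17, 95% interval -0.38 to 0.32) and Top2a (-0.16 ± 0.18). DNA repair genes fell in 3 of 31 cases and none rose (median -0.15; 5 without young control 5). Brca2, which loads the recombinase, ran from 19.4 to 27.9 CPM (median 21.7) in young and, without overlap, from 10.9 to 17.9 CPM (median 14.7) in aged ovaries (log2 fold change -0.64 ± 0.12 SE), and the replication ligase gene Lig1 changed by -0.38 ± 0.09.

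Imprinted genes of fetal growth fell in 8 of 25 cases and rose in 2 (median -0.37, the rises being 1 without aged control 2 or 4 or young control 5). Nnat, neuronatin, ran from 18.9 to 45.1 CPM (median 23.2) in young and, without overlap, from 3.87 to 9.08 CPM (median 8) in aged ovaries (log2 fold change -1.84 ± 0.24 SE). The long noncoding RNAs Meg3 and Rian of 1 imprinted cluster changed by -0.65 ± 0.17 (call lost with the replicate block and with limma on log2 TPM) and -0.86 ± 0.13, and the zinc finger gene Plagl1 by -0.70 ± 0.13. Igf2 rose, and ran from 3.14 to 5.54 CPM (median 4.90) in young and, overlapping them, from 5.53 to 10.7 CPM (median 6.58) in aged ovaries (log2 fold change 0.64 ± 0.17 SE). The call was lost without aged control 4 and with limma on log2 TPM. H19, its neighbour, was not called (-0.33 ± 0.22). In the insulin-like growth factor system 3 of 18 rose and 2 fell (1 rose without aged control 4; median 0.12). The binding proteins divided. Igfbp5 ran from 177 to 202 CPM (median 186) in young and, without overlap, from 89.5 to 112 CPM (median 95) in aged ovaries (log2 fold change -0.94 ± 0.11 SE). Igfbp6 changed by -0.64 ± 0.10, against the rise of Igfbp3 by 0.94 ± 0.25. The ligand Igf1 (-0.05 ± 0.09) and its receptor Igf1r (-0.13 ± 0.07) were not called; Igf1 passed with limma on log2 TPM.

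In the transforming growth factor beta and bone morphogenetic protein list 5 of 38 genes fell and 1 rose; the count of falls was 2 without aged control 1, 2 or 3 or young control 6 and 3 without young control 1 or 4. Bmpr1b (-1.57 ± 0.28) was among the falls. Smad9, a mediator and brake of these signals, rose and ran from 1.26 to 3.88 CPM (median 2.43) in young and, without overlap, from 4.04 to 6.53 CPM (median 5.44) in aged ovaries (log2 fold change 1.05 ± 0.23 SE). The rises in this list numbered 2 without aged control 3 or young control 2 or 3. The ligands Bmp2 and Bmp6 were not called (-0.40 ± 0.20 and -0.19 ± 0.24). Wnt signalling genes rose in 4 and fell in 7 of 39 cases. The rises were in ligands and a receptor. Wnt4 ran from 276 to 502 CPM (median 409) in young and, without overlap, from 634 to 808 CPM (median 735) in aged ovaries (log2 fold change 0.85 ± 0.17 SE). Wnt10b ran from 40.5 to 65.8 CPM (median 45.2) in young and, without overlap, from 72.4 to 139 CPM (median 108) in aged ovaries (log2 fold change 1.15 ± 0.26 SE). Wnt5a changed by 0.37 ± 0.09 (call lost with limma on log2 TPM) and Fzd4 by 0.37 ± 0.08. Rspo2, an oocyte-made enhancer of Wnt signals, ran from 2.17 to 4.96 CPM (median 4.22) in young and, without overlap, from 0.478 to 1.88 CPM (median 1.12) in aged ovaries (log2 fold change -1.80 ± 0.30 SE), and the decoy gene Sfrp2 changed by -1.28 ± 0.35. The pathway's common target Axin2 was not called (0.11 ± 0.10, 95% interval -0.10 to 0.32). In the Notch list 1 of 17 rose and 2 fell. Dll4, a ligand, changed by 0.52 ± 0.17, and its call was lost without aged control 2, 3, 4 or 5 or young control 2, 3, 4, 5 or 6. The target gene Hey2 fell, and ran from 9.02 to 15 CPM (median 9.54) in young and, without overlap, from 4.13 to 7.82 CPM (median 6.21) in aged ovaries (log2 fold change -0.81 ± 0.18 SE). Its relative Heyl changed by -0.33 ± 0.10, with the call lost without aged control 2, 4 or 5 or young control 1, 2, 5 or 6.

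All 30 cholesterol synthesis and uptake genes had a positive log2 fold change, and 8 rose (median 0.32); the count was 4 without young control 2 or 6 and 5 without aged control 3. Fdps, which makes farnesyl diphosphate, ran from 196 to 399 CPM (median 346) in young and, without overlap, from 476 to 619 CPM (median 532) in aged ovaries (log2 fold change 0.71 ± 0.14 SE). Sc5d, a late enzyme of the pathway, changed by 0.53 ± 0.12. The letters TCACNCCAC of the sterol regulatory element were in promoters of 1.45% of all genes with one and of 1 of the 20 such genes of this list. They were in 0.3% of all genes called higher and 2.3% of those called lower. Among genes changed at least 2-fold the shares were 0% of those higher and 4.08% of those lower.

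Fatty acid genes rose in 8 of 34 cases and fell in 1 (median 0.14). Plin5, which ties lipid droplets to mitochondria, ran from 18.3 to 28.9 CPM (median 23.8) in young and, without overlap, from 43.4 to 60.8 CPM (median 47.1) in aged ovaries (log2 fold change 1.06 ± 0.18 SE). Acsl4, which activates arachidonic acid, ran from 192 to 276 CPM (median 236) in young and, without overlap, from 294 to 372 CPM (median 341) in aged ovaries (log2 fold change 0.51 ± 0.10 SE). Mgll, which frees glycerol from monoacylglycerol, changed by 0.55 ± 0.11. The carriers went apart: Fabp4 rose by 2.65 ± 0.33 and Fabp3 fell. Fabp3 ran from 16.7 to 70.7 CPM (median 19.4) in young and, without overlap, from 4.03 to 11 CPM (median 7.65) in aged ovaries (log2 fold change -1.81 ± 0.38 SE). The list had 2 falls without aged control 5. Without young control 3, which had 70.7 CPM, the change of Fabp3 was -1.28 (adjusted p = 0.000399). In the apolipoprotein and efflux list 5 of 13 fell and 2 rose. The rises were Lrp1 (0.25 ± 0.08) and Lrp8 (0.65 ± 0.19), receptors that bind apolipoprotein E among others, and their count was 0 without aged control 4 or young control 2, 3, 4, 5 or 6 and 1 without aged control 1, 2, 3, 5 or 6. The 3 neighbouring genes Apoa1, Apoc3 and Apoa4 fell together. Apoa1, the main protein of high-density lipoprotein, ran from 9.96 to 15.3 CPM (median 12.1) in young and, without overlap, from 0.966 to 4.88 CPM (median 2.81) in aged ovaries (log2 fold change -2.05 ± 0.25 SE). Apoa4 changed by -2.56 ± 0.39 and Apoc3 by -1.98 ± 0.36. Apoe did not move beyond its error (0.02 ± 0.12, 95% interval -0.22 to 0.27).

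Of 14 retinoid genes 4 fell and 2 rose; the count of falls was 2 without aged control 1, 2, 3 or 6 or young control 2 or 3. Crabp2, which carries retinoic acid to its receptor, ran from 12.6 to 17.8 CPM (median 14.2) in young and, without overlap, from 2.02 to 5.39 CPM (median 3.06) in aged ovaries (log2 fold change -2.22 ± 0.22 SE). Cyp26b1, which breaks retinoic acid down, rose; it ran from 3.65 to 8.95 CPM (median 5.62) in young and, without overlap, from 11.6 to 23 CPM (median 20.1) in aged ovaries (log2 fold change 1.68 ± 0.22 SE). Aldh1a2, which makes retinoic acid, rose as given above. The young sum of this list was 759.5 to 907 CPM apart from young control 3 at 1373 CPM.

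Nuclear genes of the respiratory chain rose in 14 of 38 cases (6 to 22 over the alternatives) and fell in none (median 0.17, 0.11 to 0.19 over the alternatives), each by less than a fold of 1.5. Sdhb, a subunit of complex II, ran from 193 to 215 CPM (median 202) in young and, without overlap, from 248 to 275 CPM (median 256) in aged ovaries (log2 fold change 0.35 ± 0.06 SE). Uqcrfs1 of complex III changed by 0.29 ± 0.08 (call lost with library totals and with limma on log2 TPM) and Ndufa4 by 0.31 ± 0.08. The 38 genes together summed to 5852 to 7073 CPM in young and 7252 to 7900.4 CPM in aged ovaries. Of 15 mitochondrial genome genes 1 was called, mt-Cytb (0.21 ± 0.07, adjusted p = 0.0481), which was past the threshold in 12 of 24 alternatives; the call was lost without aged control 1, 2, 3 or 5 or young control 3, 4 or 6. The list's median was 0.09.

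Antioxidant and glutathione genes rose in 5 of 33 cases and fell in 2 (median 0.13). Sod2, the mitochondrial superoxide dismutase gene, ran from 94.9 to 103 CPM (median 101) in young and, without overlap, from 112 to 141 CPM (median 134) in aged ovaries (log2 fold change 0.38 ± 0.06 SE). Gpx4, which repairs lipid peroxides, ran from 63.9 to 80.9 CPM (median 68.7) in young and, overlapping them, from 80.9 to 101 CPM (median 93.0) in aged ovaries (log2 fold change 0.38 ± 0.09 SE). Mgst1 changed by 0.42 ± 0.09. Gpx7 fell. Gpx7 ran from 25 to 34.9 CPM (median 30.0) in young and, without overlap, from 15.6 to 20.7 CPM (median 18.5) in aged ovaries (log2 fold change -0.72 ± 0.11 SE). The other fall was that of Gstm2 (-0.47 ± 0.14), a glutathione transferase gene, whose call was lost without aged control 1, 2, 3, 4, 5 or 6 or young control 1, 2, 3, 5 or 6. The regulator gene Nfe2l2 was not called (0.03 ± 0.06, 95% interval -0.10 to 0.17). Among 31 unfolded protein and heat shock genes 6 rose and none fell. Herpud1, part of the disposal machinery of the endoplasmic reticulum, ran from 22.8 to 26.8 CPM (median 25.5) in young and, without overlap, from 34.2 to 51.9 CPM (median 39.9) in aged ovaries (log2 fold change 0.69 ± 0.10 SE), and Dnajb9 changed by 0.56 ± 0.11. Hspa1a ran from 4.96 to 8.31 CPM (median 7.26) in young and, overlapping them, from 8.28 to 63.3 CPM (median 20) in aged ovaries and was not called (1.79 ± 0.56; it passed without aged control 5 or 6).

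Genes of ion channels fell in 5 of 27 cases and rose in 2. Kcnj3, a G protein-gated potassium channel gene, fell; it ran from 4.17 to 7.06 CPM (median 6.37) in young and, without overlap, from 1.41 to 3.43 CPM (median 2.34) in aged ovaries (log2 fold change -1.29 ± 0.25 SE). The potassium channel gene Kcnd2 rose by 1.19 ± 0.25 and the cation channel gene Trpm4 by 0.41 ± 0.12, the latter with the call lost without aged control 3 or 6 or young control 2, 3, 5 or 6. Kcnq5 changed by -2.63 ± 0.56 (-3.09 to -0.30 over the alternatives). It was low, at 0.772 to 3.41 CPM in young and 0 to 0.724 CPM in aged ovaries. Among 15 carbonic anhydrase and pH genes 2 rose and 1 fell. The membrane-bound Car14 fell, and ran from 10.3 to 36.4 CPM (median 19.2) in young and, without overlap, from 2.55 to 7.48 CPM (median 4.37) in aged ovaries (log2 fold change -2.13 ± 0.43 SE); the cytosolic Car2 rose by 0.75 ± 0.20, and Car3, given above, was the other rise. In the clock list 2 of 20 rose (the number was 1 without aged control 2 or 6 or young control 2, 3 or 6) and 1 fell. Nr1d1, a repressor of the clock loop, ran from 26.4 to 42.6 CPM (median 39.7) in young and, without overlap, from 42.6 to 74.3 CPM (median 56.7) in aged ovaries (log2 fold change 0.64 ± 0.15 SE). The receptor gene Rora also rose (0.31 ± 0.09, past the threshold in 17 of 25 alternatives), and the repressor gene Cry1 fell (-0.49 ± 0.16, with the call lost without aged control 2, 3, 4 or 5 or young control 2, 3, 4 or 6). Arntl (0.15 ± 0.17) and Per2 (-0.61 ± 0.22) were not called. Immediate early genes had 1 of 26 higher and 1 lower. Fosl2 rose, and ran from 236 to 338 CPM (median 265) in young and, overlapping them, from 319 to 422 CPM (median 396) in aged ovaries (log2 fold change 0.50 ± 0.08 SE), and the number higher was 2 without aged control 5 or 6. Egr1 fell (-0.72 ± 0.21), with the call lost without aged control 1, 2, 4 or 6 or young control 6; 2 genes were lower without aged control 5. In the list of Hox and positional factors 3 of 31 rose and 1 fell, with Meis1 at 0.40 ± 0.08, Hoxd8 at 0.32 ± 0.08 and Zfpm2 at -0.45 ± 0.11. The number of falls in it was 2 without aged control 6 or young control 4 or 5 and 3 without aged control 5, and the call of Zfpm2 was lost with limma on log2 of TPM plus 0.1. Nr5a1, the master gene of steroid-making cells, was not called (-0.31 ± 0.12; it passed without aged control 6).

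The 8 genes with the largest spread within groups among those of at least 20 CPM were Akr1b7, Ly6d, Cyp11b1, Scgb1a1, Aqp2, Pdzrn4, Cyp17a1 and Akr1c18, and none of them was called. Akr1c18, which inactivates progesterone at the end of luteal life, stood at 918, 573 and 1624 CPM in aged controls 1, 2 and 3 and at 118, 183 and 158 CPM in aged controls 4, 5 and 6, against 101 to 245 CPM in young ovaries. It was not called (log2 fold change 2.01 ± 0.63 SE, adjusted p = 0.0611), but passed without aged control 4, 5 or 6, with DESeq2 and without robust shrinkage. So 3 aged ovaries lay above every young one and 3 within the young range. Pdzrn4 was also higher in aged controls 1 to 3 (28.3, 31.9 and 81.6 CPM) than in 4 to 6 (9.40, 6.11 and 7 CPM). Young control 3 had 0.426 CPM of Akr1b7 and 0.533 CPM of Cyp11b1, where the lowest of the other young libraries had 72.6 and 92.8 CPM. It had the highest level of the androgen-making Cyp17a1, 383 CPM. Cyp17a1 ran from 39.8 to 128 CPM in the other young and from 5.31 to 40.2 CPM in aged ovaries; its log2 fold change was -2.35 ± 0.73 (adjusted p = 0.059) with young control 3 and -1.44 (adjusted p = 0.189) without it. For Cyp11b1 the values were -0.87 ± 0.58 (adjusted p = 0.401) with it and -1.13 (adjusted p = 0.0471) without it, where the fall was called.

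**Figure D5:**
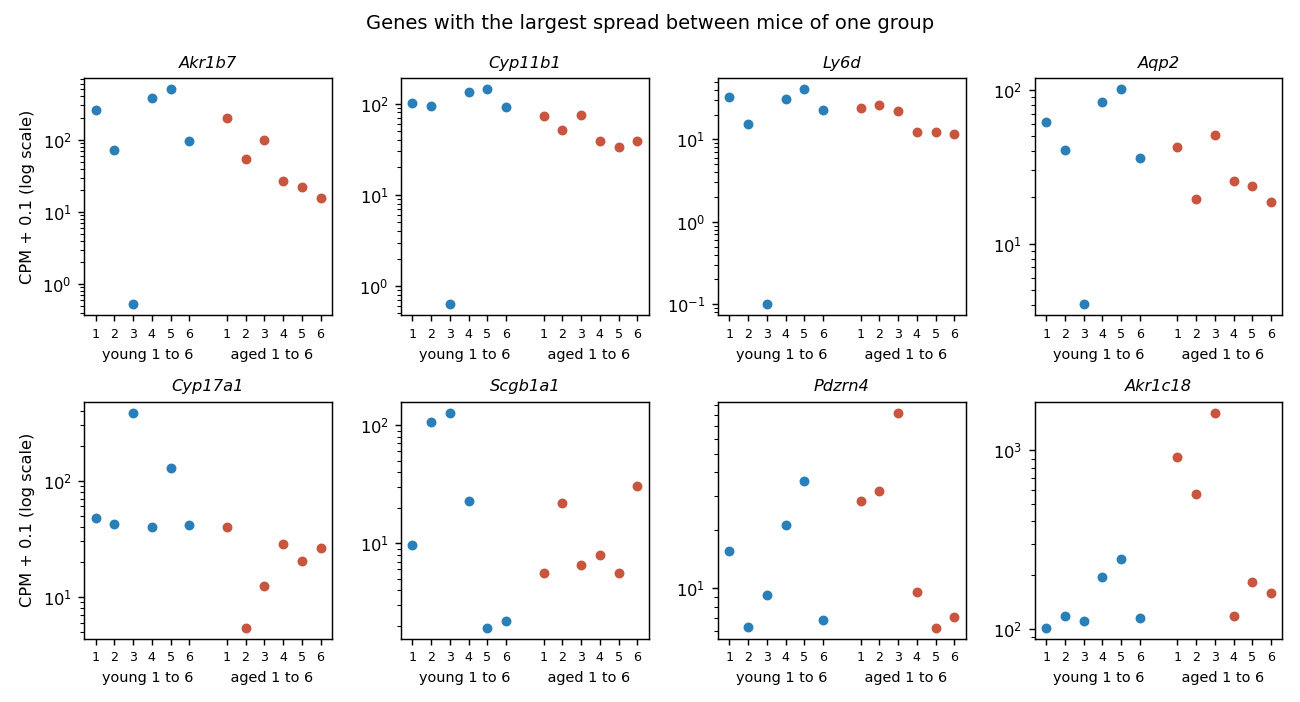
CPM plus 0.1 (log scale, y axis) of the 8 genes with the largest spread between mice of one group, 1 point per mouse (young controls 1 to 6, then aged controls 1 to 6). Young control 3 is far below the other young mice for Akr1b7, Cyp11b1, Ly6d and Aqp2, and aged controls 1 to 3 lie above aged controls 4 to 6 for Akr1c18 and Pdzrn4.

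Whether aged ovaries varied more among themselves than young ones depended on young control 3. With all 12 libraries the mean absolute log2 distance of a library from the rest of its group was 0.259 ± 0.0513 in young and 0.274 ± 0.0122 in aged ovaries (SD, n = 6; exact permutation p = 0.569). Without young control 3 the aged ovaries lay further from each other, with a difference of 0.0397 (exact permutation p = 0.00216, the smallest that the regroupings of 5 against 6 allow). Young control 3 lay furthest from its group (0.3628), so leaving it out lowers the young spread by itself. The distances of a group share its libraries and are not independent, which the permutation does not take into account. With all 12 libraries, over genes of at least 20 CPM, the difference was -0.00834. Over 6649 genes of at least 20 CPM the median SD of log2 CPM was 0.126 in young, 0.120 in aged and 0.099 in young ovaries without young control 3.

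Called genes lay beside each other in the genome in some places. In the RefSeq order of 14796 tested genes there were 25 runs of at least 3 neighbours called in the same direction, 16 lower and 9 higher. The longest held 9 Fbxw genes, an oocyte family of F-box proteins, of which Fbxw20 changed by -2.30 ± 0.41 and Fbxw21 by -1.54 ± 0.32; they are close copies and may share reads. Next was a run of 7 on the order of Gprasp1, Gprasp2, Bhlhb9, Arxes2, Arxes1, Bex2 and Bex4, all lower, with Bex4 at -1.21 ± 0.18 and Gprasp2 at -0.89 ± 0.16. Among the higher runs were H2-DMb1, Psmb9, Tap1 and Psmb8, and the complement genes C1rl, C1ra and C1s1 with Clstn3. The runs were counted after the calls had been made and were not tested.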

How the data were processed

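RNA of whole ovaries was sequenced with a 3' messenger RNA kit (QuantSeq), per the labels' protocols. The authors deposited 1 table per library with 55416 genes, holding expected counts and TPM (transcripts per 1000000) estimated by RSEM, per the file headers. FastQC 1.9, STAR 2.7.9a, RSEM 1.3.3 and the mouse build GRCm39 are named in the submitters' processing notes; for the annotation release and the strand setting the sources used here give nothing. RSEM divides reads that fit several genes, so 87.4% of the expected counts were whole within 0.005, and close copies of a gene can share reads. TPM divides by transcript length, which a 3' library does not need, and the authors' TPM values served only as an alternative.

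Expected counts were rounded and genes with low counts were removed with edgeR's filterByExpr (minimum count 10, minimum total 15). edgeR 4.0.16 (R 4.3.3) fitted a robust quasi-likelihood model with TMM scaling to the 18 libraries and 3 group means, and aged controls were contrasted with young controls. Adjusted p is Benjamini-Hochberg over 16959 genes, with 0.05 as the threshold of a call. Log2 fold changes are given ± SE with aged over young, also where the text says that a gene changed by a value; CPM uses the scaled library sizes. Nothing in the labels says more than that samples of a group came from separate mice, with 1 library each, so the p-values measure the spread between these mice. Library measures were compared by exact 2-sided permutation over 924 regroupings. No pair of libraries within a group agreed within sampling noise (chi-square per degree of freedom at least 4.1 in 30 pairs). The counting error of a library is part of the fitted spread, and depth limits genes of a few counts most.

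The comparison and the 54 gene lists were chosen with earlier results of these data known, so lists are described and not tested. Named by rule were, in each direction, the 12 called genes of smallest p among those that reached a mean of 5 CPM in either group without overlap, the 8 called genes with the largest difference in mean CPM, up to 6 called members of each list by p (with fewer than 2 called, the 2 members of highest mean CPM), a panel of 26 genes, and the 8 genes of at least 20 CPM with the largest spread within groups. A further part of the rule, genes on in 1 group and off in the other, named no gene. Predicted genes and variable segments were counted and not named, and some other genes that the rule names are not reported here. Outside the rule, and chosen after their values were seen, are Apoe, Arntl, Arxes1, Astl, Axin2, B2m, Bmp2, Bmp6, Bub1b, Cd55, Cd59a, Ciita, Cspg4, Cxcr6, Elavl2, Elavl3, Fabp3, Fbxw20, Fbxw21, Flt4, Foxl2, Gbp3, Gimap4, Gprasp2, Gstm2, Hhip, Hspa1a, Ifi47, Igf1r, Igtp, Iigp1, Inhbb, Irf9, Khdc1b, Khdc1c, Lrp1, Mcm6, Meg3, Mgll, Mki67, Mybpc3, Ndufa4, Nfe2l2, Nlrp4a, Nlrp9c, Nr5a1, Oas1c, Oas1d, Oas1e, Oas1h, Oasl2, Ooep, Pdgfrb, Pdpn, Per2, Plk1, Pln, Psmb8, Rgs5, Serping1, Sfrp2, Smoc2, Syt7, Tnni3, Top2a, Tubb2b, Uqcrfs1, Wnt10b and Yy1. Of 1217 list members 1212 matched a symbol in the files. Promoters are RefSeq sequences of GRCm38.p6, another build than that of the files, so they were matched by symbol only and no position of the files was used; neighbours were taken from a RefSeq gene order in the same way.

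Alternatives were DESeq2 1.42.0, limma 3.58.1 (voom, and log2 of the deposited TPM plus 1 or plus 0.1), other scalings and filters, the 12 libraries alone, each library left out, a replicate block and a threshold of 0.01. On simulated counts for this comparison the edgeR script recovered 36 of 48 and 38 of 50 genes changed 2-fold in the 2 directions, 45 of 47 and 49 of 50 changed 4-fold, and made 8 false calls among 16508 unchanged genes. In the simulation far fewer genes changed than were called here, and no library stood apart as young control 3 does. These rates may therefore not hold for the real libraries. Figures were drawn with matplotlib 3.10.9 and permutations used scipy 1.17.1.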

Additional observations from a re-analysis of the deposited data

Results flagged for a closer look

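For the genes of the text, the highest or lowest of the 6 libraries of a group was set against the other 5. In 52 of 500 gene and group pairs (10.4%) the gap to its nearest neighbour exceeded 0.625 of the whole range of the group, which is the critical value of Dixon's test at 95%; chance gives about 1 in 20. Young control 3 was the library in 25 of the 52, and aged control 6 in 10.

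C2 (38.7 CPM against 16.2 to 22.8), Ccl21a (75.1 CPM against 32.2 to 41.7) and Cdkn1b (311 CPM against 242 to 263) stood highest of their group in young control 3. Clu (613 CPM against 353 to 446), Cspg4 (17.6 CPM against 13.5 to 14.6) and Cxcl9 (0.746 CPM against 0 to 0.171) did so too. Cyp17a1 (383 CPM against 39.8 to 128), Egr1 (102 CPM against 36.1 to 52) and Fabp3 (70.7 CPM against 16.7 to 20.3) did so too. Fosl2 (338 CPM against 236 to 273), Fshr (8.84 CPM against 2.48 to 4.65) and Gpnmb (15.4 CPM against 2.14 to 6.82) did so too. Kcnd2 (24.6 CPM against 8.04 to 10.9), Lhcgr (414 CPM against 164 to 232) and Meg3 (445 CPM against 236 to 288) did so too. Myocd (24.8 CPM against 13.9 to 17.8), Nnat (45.1 CPM against 18.9 to 27.8) and Nr5a1 (152 CPM against 106 to 118) did so too. Smoc2 (152 CPM against 51.1 to 72.1) and Wnt10b (65.8 CPM against 40.5 to 47.7) did so too. Abcb1b (204 CPM against 595 to 741), Cd55 (6.18 CPM against 12.1 to 13.5) and Cyp11b1 (0.533 CPM against 92.8 to 144) stood lowest of their group in young control 3. Fbn1 (46.3 CPM against 51.2 to 53.9) and Mgarp (463 CPM against 662 to 716) did so too. Without young control 3 the log2 fold change of Ccl21a was -0.84 (-1.06 with it), of Egr1 -0.47 (-0.72) and of Meg3 -0.48 (-0.65). That of Kcnd2 was 1.51 (1.19), of Gpnmb 3.13 (2.71) and of C2 1.10 (0.91).

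Cd74 (55 CPM against 17.1 to 23.5), H2-Aa (112 CPM against 43.1 to 58.2) and H2-D1 (432 CPM against 262 to 322) stood highest of their group in aged control 6. H2-Eb1 (87.6 CPM against 35.7 to 40.8), H2-Q7 (29.8 CPM against 14.8 to 20.3) and Ifi47 (19.4 CPM against 11.1 to 12.9) did so too. Igtp (13.4 CPM against 6.94 to 8.56), Iigp1 (61.4 CPM against 17.6 to 27.9) and Plin5 (60.8 CPM against 43.4 to 49.8) did so too. Psmb8 (64.2 CPM against 35 to 43.8) did so too. The difference between the ages was called for H2-Aa, H2-Eb1 and Iigp1 also without aged control 6.

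Aged control 1 stood apart for Fabp4 (highest, 63.5 CPM against 29.3 to 38.6), Hspa1a (highest, 63.3 CPM against 8.28 to 24.2) and Msln (highest, 3.87 CPM against 1.71 to 2.25). Aged control 4 stood apart for Apoc3 (highest, 0.948 CPM against 0.322 to 0.514) and Yy1 (highest, 122 CPM against 109 to 112). Aged control 5 stood apart for Arxes2 (highest, 20 CPM against 12.9 to 15), Crabp2 (highest, 5.39 CPM against 2.02 to 3.25), Gtsf1 (highest, 1.37 CPM against 0.0878 to 0.478), Il18 (lowest, 16.2 CPM against 19.6 to 20.6), Plau (highest, 72.3 CPM against 52.5 to 59.6), Tdrd1 (highest, 1.37 CPM against 0.237 to 0.599) and Th (highest, 0.724 CPM against 0 to 0.239). Young control 1 stood apart for Bmp6 (highest, 8.13 CPM against 5.26 to 6.05) and Zfpm2 (lowest, 20.7 CPM against 24 to 25.9). Young control 2 stood apart for Irf1 (highest, 43.4 CPM against 36.6 to 38.9). Young control 4 stood apart for Cdkn2a (highest, 2.56 CPM against 1.26 to 1.63). Young control 6 stood apart for Hey2 (highest, 15 CPM against 9.02 to 10.5).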

How the results depend on the processing

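Of the 212 called genes named in the text, 180 kept their call in each of the 25 alternatives at a threshold of 0.05 that could be fitted for them, and 32 lost it in at least 1, 4 of these only with log2 TPM; 12 of the 38 uncalled genes passed in at least 1. The number of called genes was between 1505 (without young control 6) and 1805 (without aged control 6) when 1 library was left out, with 682 to 853 higher, 814 to 957 lower and 434 to 498 changed at least 2-fold. It was 2307 with only the 12 libraries, 2252 with DESeq2, 2767 with limma voom, 1709 without a filter and 2193 without young control 3 and treated library 6. With library totals 501 genes were called higher, since that scaling moved the median of all genes to -0.06. With log2 of TPM plus 1 the calls were 559 higher and 187 at least 2-fold, and with log2 of TPM plus 0.1 they were 543 higher. A threshold of 0.01 left 982 genes, 406 higher and 576 lower.

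The labels do not say that the replicate numbers pair the mice. Same-numbered libraries deviated from their group means with correlations from -0.08 to 0.05. Low correlations alone cannot show that the numbers carry no pairing. With the replicate block 1756 genes were called, 825 higher and 931 lower, and 456 at least 2-fold.

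Leaving out 1 library, the difference in genes detected (aged minus young) ran from -908 to -738. Other differences ran from -0.632 to 0.388 in depth (in multiples of 1000000 counts), from 0.302 to 1.24 percentage points for the most abundant gene, from -0.0813 to 0.166 for mitochondrial genome genes and from 0.0275 to 0.211 for ribosomal protein genes. Those in depth and mitochondrial share changed sign. The difference in mean own-group correlation ran from -0.0068 (without young control 3, exact permutation p = 0.00216) to -0.000374, and that in distance from the group from 0.00233 to 0.0397 (without young control 3); over genes of at least 20 CPM the distance difference was -0.00834. The cause of these shifts was not tested, and the p without young control 3 has the limits given above for the distance.

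Among uncalled genes near 0, Apoe turned to -0.05 with library totals and -0.01 with log2 TPM, and Nfe2l2 to -0.04 with library totals and -0.00 with log2 TPM. When 1 library was left out Apoe ran from -0.03 to 0.13 (without young control 3) and Mki67 up to 0.00. Depth limits the genes under 1 CPM, whose median SE was 0.45 on the log2 scale against 0.07 for genes over 100 CPM.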

Other observations

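The genes below belong to no list of the report and were chosen after their values were seen. Genes of the 2'-5' oligoadenylate synthetase family went both ways. Oas1c, Oas1d, Oas1e and Oas1h, which ovary and oocytes express, changed by -1.79 ± 0.28, -1.84 ± 0.26, -1.97 ± 0.25 and -2.45 ± 0.38 (log2 fold change ± SE, aged against young), while the interferon-stimulated relative Oasl2 changed by 0.66 ± 0.19 (its call was lost without aged control 6 or young control 4). Oas1e ran from 6.92 to 9.69 CPM (median 8.03) in young and, without overlap, from 1.41 to 2.71 CPM (median 2.15) in aged ovaries.

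Of genes best known from other tissues, the RNA-binding protein genes Elavl2 and Elavl3 changed by -1.07 ± 0.15 and -1.53 ± 0.34, the synaptic gene Syt7 by -1.13 ± 0.14, and the tubulin gene Tubb2b by -1.11 ± 0.16. Elavl2 ran from 9.41 to 13.7 CPM (median 11.6) in young and, without overlap, from 4.22 to 7 CPM (median 5.52) in aged ovaries. The muscle genes Pln, Tnni3 and Mybpc3 changed by -2.65 ± 0.44, -1.20 ± 0.18 and -1.18 ± 0.27, while the skeletal muscle list had no call in either direction. Pln ran from 1.12 to 3.93 CPM (median 2.84) in young and, without overlap, from 0 to 0.703 CPM (median 0.535) in aged ovaries.

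Cxcr6, a chemokine receptor gene of tissue-resident lymphocytes, changed by 2.14 ± 0.41 and the GTPase gene Gimap4 by 0.71 ± 0.11. Cxcr6 ran from 0.0855 to 0.931 CPM (median 0.441) in young and, without overlap, from 1.38 to 3.90 CPM (median 2.12) in aged ovaries.

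Nlrp9c and Nlrp4a, which lie beside each other, changed by -1.74 ± 0.48 and -1.92 ± 0.39 (the call of Nlrp9c was lost without young control 2). The neighbours Khdc1c and Khdc1b fell as well (-2.62 ± 0.59 and -1.82 ± 0.26).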
